A study of Mus musculus with 94 samples.

Results

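The ribosomal protein genes are the protein-coding genes for the structural proteins of the cytosolic ribosome. They were taken by symbol, as names formed of Rpl or Rps, a number and at most a short suffix, together with Rplp0, Rplp1, Rplp2 and Rpsa. The rule found 84 of the 24767 gene symbols of 4 deposited count tables, namely 52 genes of the large subunit, which include the 3 stalk genes, and 32 of the small subunit. All 84 stood in each of the 3 RNA-seq tables, and 60 of them in the table of PRO-seq, an assay that maps engaged RNA polymerases and so reads nascent transcription.

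The cells were mouse embryonic stem cells from a CAST/Ei x 129/Sv/Jae hybrid that all carry a stop in Tsix, differentiated as embryoid bodies without LIF. Both treatments of each comparison carried the same FKBP degron, either on WAPL, the factor that releases cohesin from chromatin, or on RAD21, a core subunit of the cohesin ring. The ligand dTAG-13, used at 500 nM, marks the tagged protein for the proteasome, and cells given DMSO served as controls. In the WAPL lines 3 dTAG-13 libraries and 3 DMSO libraries were treated on days 4 to 7 (clone H7 in 2 replicates and clone H2 in 1), and 2 dTAG-13 and 2 DMSO libraries on days 7 to 10 (clone H7). In the RAD21 clones C4 and G9, treated for 8 h, there were 2 dTAG-13 and 2 DMSO libraries of RNA at day 10 and as many of nascent RNA at day 7. Each line is 1 clone or a pair of clones, and the undifferentiated cells had been kept on irradiated embryonic fibroblasts, so a residue of these feeders can be in the libraries.

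Ribosomal protein genes are among the most strongly transcribed genes of a growing cell, and their products are made in matched amounts to be built into new subunits in the nucleolus. Their mRNAs begin with a cytosine followed by a run of pyrimidines, the terminal oligopyrimidine (TOP) tract, through which mTOR and the RNA-binding protein LARP1 set their translation, while MYC proteins raise the transcription of genes for ribosome assembly. Many of the genes carry small nucleolar RNAs (snoRNAs) in their introns, and most have processed pseudogene copies elsewhere in the genome.

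The annotated start sites of selected members are shown first, since these 30 bases hold the pyrimidine tract where there is one. The sequences are from RefSeq (build GRCm38.p6), read on the gene's own strand, with 15 bases before the annotated start and the start itself as the next base. Capitals mark the stretch from the first C within 5 bases of the start that is followed by at least 4 bases each C or T, to the end of that run of C and T, and a sequence without capitals has no such C in that window. Rpl38 and Rps15a passed in none of the comparisons below and are shown because their capitals begin at the annotated start itself. Rpl7a, Rpl28 and Rps18 passed the test in nascent RNA, Rpl36a, Rpl5, Rpl10l and Rpl22l1 did so after WAPL degradation, and Rplp0 and Rplp2 after RAD21 degradation. Not every member that passed is shown. Of those left out, Rpl10a, Rpl11, Rpl27, Rpl37, Rpl37a and Rps25 have no such C, and Rpl14 and Rps10 have one. The selection therefore says nothing on a link between the tract and the calls.
Rpl38 (chr11:114668565-114668594, plus strand): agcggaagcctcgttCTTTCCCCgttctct
Rps15a (chr7:118116133-118116162, minus strand): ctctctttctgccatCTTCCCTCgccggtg
Rpl7a (chr2:26910792-26910821, plus strand): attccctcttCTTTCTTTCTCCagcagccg
Rpl28 (chr7:4792950-4792979, plus strand): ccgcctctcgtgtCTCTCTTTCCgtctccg
Rps18 (chr17:33955651-33955680, minus strand): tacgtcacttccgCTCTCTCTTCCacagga
Rpl22l1 (chr3:28805493-28805522, plus strand): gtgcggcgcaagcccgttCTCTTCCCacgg
Rpl36a (chrX:134585639-134585668, plus strand): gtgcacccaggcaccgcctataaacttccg
Rpl5 (chr5:107900513-107900542, plus strand): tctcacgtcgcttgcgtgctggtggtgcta
Rpl10l (chr12:66284387-66284416, minus strand): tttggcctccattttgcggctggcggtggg
Rplp0 (chr5:115559452-115559481, plus strand): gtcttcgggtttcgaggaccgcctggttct
Rplp2 (chr7:141447636-141447665, plus strand): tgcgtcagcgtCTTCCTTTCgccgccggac

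RefSeq promoters were at hand for 64 of the 84 members, 76 start sites in all. The annotated start base was itself a C followed by 4 bases each C or T at 14 of the 76 sites (18.4%), against 2.51% of all 32851 promoters, and at some of these the run had already begun before the start, as in Rpl28, Rps18 and Rplp2. Such a C lay within 5 bases of the start at 42.1% of the members' sites and at 18.3% of all. Only the gene's strand was searched, and an annotated start can lie some bases from the one used in these cells.

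The libraries held between 8413212 and 35388461 counts, and the members together took 0.903 to 1.54% of the counts in RNA and 0.641 to 0.749% in nascent RNA. Levels are given as CPM (read counts scaled to library size) after TMM scaling, which sets the libraries of a table to a common scale. The summed level of 8 pluripotent cell markers was 966 to 2774 CPM over the RNA libraries, and that of the fibroblast markers 74.2 to 294.6 CPM (9 markers in the table of days 4 to 7, 8 of them in the other RNA tables). Loss of a degron-tagged protein does not show in its mRNA: Rad21 differed by 0.14 on the log2 scale after RAD21 degradation (adjusted p = 0.104) and Wapl by 0.01 after WAPL degradation on days 4 to 7 (adjusted p = 0.971), both by edgeR's quasi-likelihood test. These are bulk samples, in which fewer cells of a type and less RNA per cell cannot be told apart.

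The members differed widely in how many reads were assigned to them. In RNA their mean count per library ran from 11 for Rpl3l, a copy used in muscle, to 36071 for Rpl4 in the RAD21 set, and in nascent RNA from 13.1 for Rpl32l to 7749 for Rps20. The 56 members with at least 10 CPM in the PRO-seq DMSO libraries lay within 49.0 to 367 CPM there, while their ratio of RNA to nascent CPM in DMSO libraries ran from 0.0131 for Rps23 to 6.23 for Rpl8. Outside these 56, Rpl32l had 89.1 CPM in RNA and 0.524 CPM in nascent RNA, a ratio of 170. Rpl36a had 2.82 CPM in RNA and 82.6 CPM in nascent RNA, and Rpl29 had 1.02 CPM in RNA and 49.0 CPM in nascent RNA. For 12 of these 56 members with no pseudogene named after them in RefSeq the median ratio was 1.22, for 29 with 1 to 4 it was 0.374, and for 15 with 5 or more it was 0.246 (Spearman's rho = -0.44 over the 56 genes, a description). These ratios are not divided by length and set day 10 RNA against day 7 nascent RNA. How reads that match several copies were counted is not given in the sources used here, so the level of a member with close copies is uncertain in every comparison below.

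Of the 24 members outside the PRO-seq table, 23 hold a snoRNA gene within them in the RefSeq annotation, among them Rpl3, Rpl4, Rpl13a, Rps2, Rps3 and Rpsa, and the other is Rps21. Of the 60 members inside that table, 7 hold one, namely Rpl5, Rpl6, Rpl7a, Rpl21, Rpl30, Rps13 and Rps20. The RNA table of days 4 to 7 had 114 rows of snoRNA type and the PRO-seq table had 0. The nascent measurements below therefore cover few of the snoRNA hosts.

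**Figure D1:**
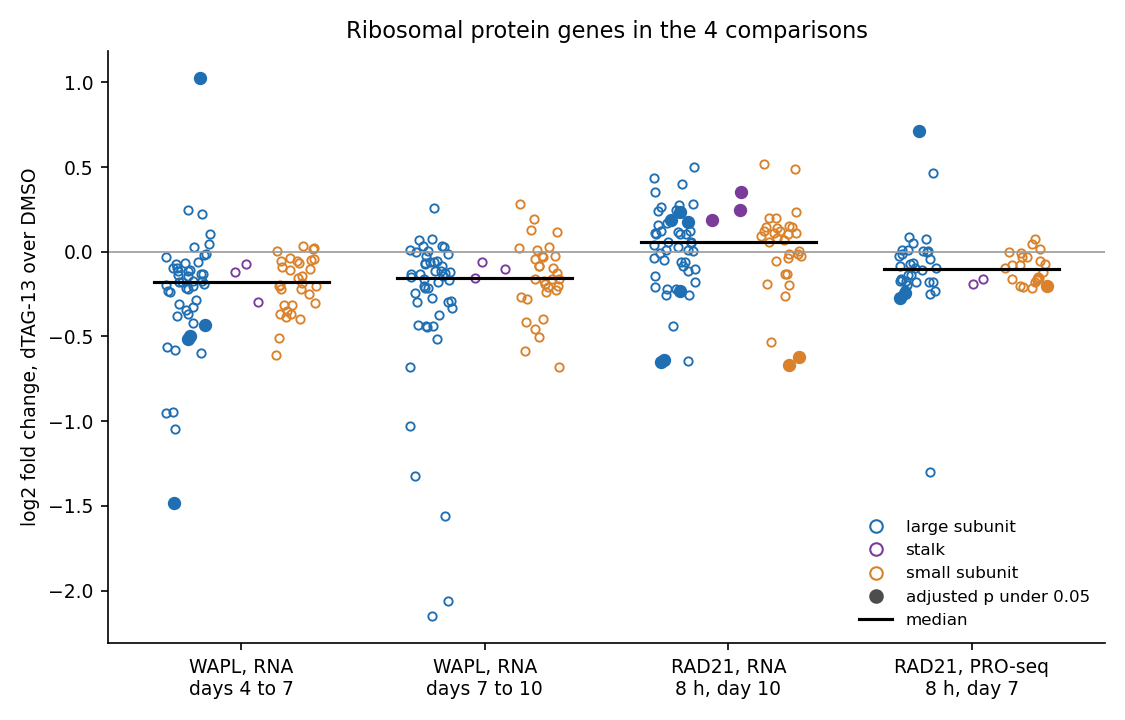
Fitted log2 fold change of each ribosomal protein gene, dTAG-13 over DMSO, in the 4 comparisons, with the large subunit, the stalk and the small subunit side by side. Filled points have an adjusted p under 0.05 and black lines are the medians, which lie at -0.18, -0.15, 0.06 and -0.10 from left to right.

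After WAPL degradation on days 4 to 7 most members had slightly lower values, but few passed the test. The fitted log2 fold change was below 0 for 74 of 84 members, against 51.7% of all tested genes, with a median of -0.18 beside -0.01 over all 14870 tested genes. Large and small subunit genes did not stand apart, with medians of -0.18 and -0.19. Of the 84 members 5 passed an adjusted p of 0.05 (edgeR quasi-likelihood), 4 of them lower and 1 higher. Over all tested genes 15.2% passed, 6.07% lower and 9.15% higher, so the members' count does not exceed the background. In every one of the 3 pairs of libraries 28 members were lower (30.9% of all tested genes were) and 2 were higher (28.8%). The groups did not overlap for 5 members that were lower (14.9%) and 1 that was higher (15.9%).

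The largest change that passed was in Rpl36a, an X-linked gene for a large subunit protein. It had 1.39, 1.42 and 2.46 CPM in the dTAG-13 libraries (H7 replicate 1, H7 replicate 2 and H2), against 4.60, 4.01 and 5.68 CPM in the DMSO libraries. The groups did not overlap, and the fold change on the log2 scale was -1.49 ± 0.21 (SE, adjusted p = 0.00479). Its call held under all 16 alternative settings, but it rests on a gene whose RNA counts are low beside its nascent signal. These counts were 18, 41 and 32 in the dTAG-13 libraries and 163, 85 and 46 in the DMSO libraries, in the same order.

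Rpl5, which with Rpl11 and the 5S ribosomal RNA forms the particle that can bind and restrain MDM2, had 50.5, 53.6 and 45.7 CPM in the dTAG-13 libraries and 62.4, 71.7 and 82.1 CPM in the DMSO libraries. Every dTAG-13 library was below every DMSO library, a log2 fold change of -0.52 ± 0.13 (SE, adjusted p = 0.0309). Its partner Rpl11 gave 77.1, 16.1 and 21.0 CPM with dTAG-13 and 48.6, 45.2 and 23.5 CPM with DMSO. The pairs of Rpl11 went in different directions, and its adjusted p was 0.932.

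Rpl10a, the protein of the mobile L1 stalk, had 30.6, 25.2 and 35.9 CPM with dTAG-13, against 36.2, 35.4 and 53.3 CPM with DMSO. Each dTAG-13 library was lower than its own DMSO partner, while the groups overlapped, with a log2 fold change of -0.43 ± 0.12 (SE, adjusted p = 0.0447). Rpl22l1, the close relative of the RNA-binding large subunit gene Rpl22, had 11.5, 12.8 and 8.39 CPM with dTAG-13 and 15.3, 18.3 and 12.5 CPM with DMSO. It too was lower in each pair and overlapped between groups (log2 fold change -0.50 ± 0.14, SE, adjusted p = 0.0495). Rpl22 itself averaged 244 ± 47 CPM with dTAG-13 and 265 ± 31 CPM with DMSO (SD, n = 3 each), an adjusted p of 0.657 in edgeR.

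Rpl10l, the intron-less autosomal copy of X-linked Rpl10 known for its use in male germ cells, was the one member that rose. It had 13.2, 9.44 and 12.5 CPM in dTAG-13 libraries, against 7.48, 5.67 and 3.58 CPM in DMSO libraries. No dTAG-13 value fell within the DMSO range, and the log2 fold change was 1.03 ± 0.25 (SE, adjusted p = 0.0291). Of the 16 alternative settings, 11 kept the call of Rpl10l, 11 that of Rpl5, 7 that of Rpl10a and 4 that of Rpl22l1. Rpl10, its parent, had 7.82, 9.13 and 8.31 CPM with dTAG-13 and 11.0, 10.4 and 10.3 CPM with DMSO. These groups did not overlap either, in the other direction, but the change of -0.32 ± 0.15 (SE) did not pass (adjusted p = 0.166).

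**Figure D2:**
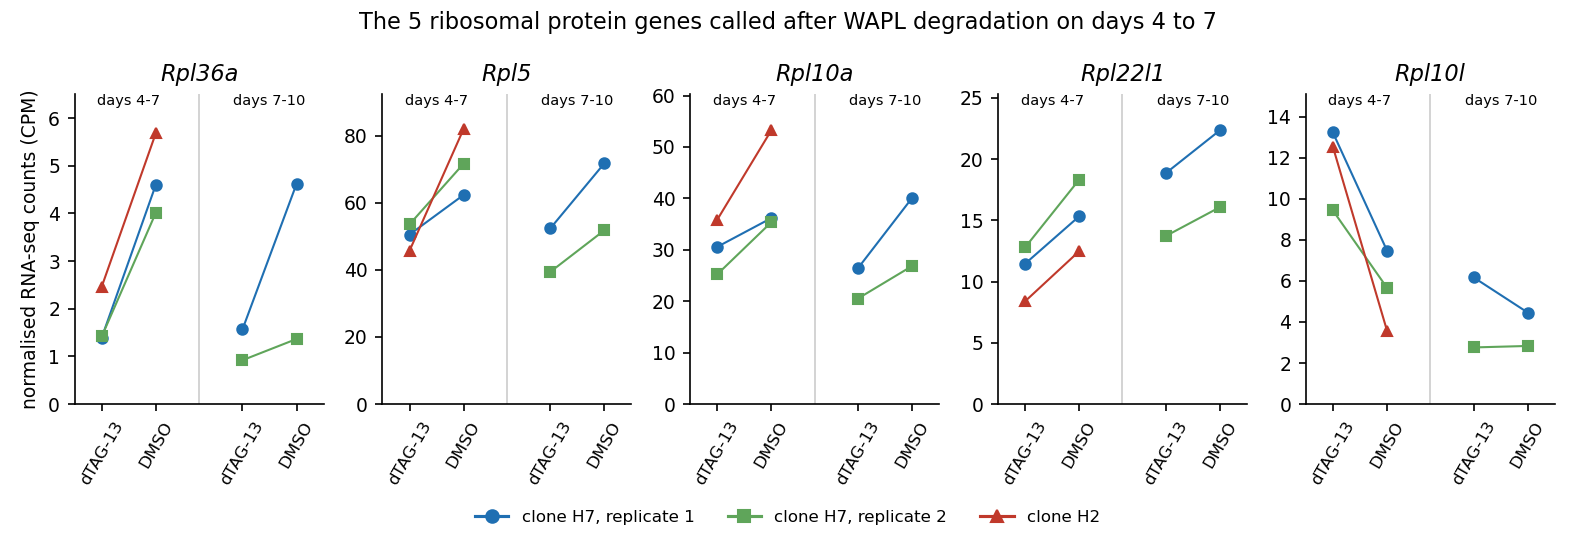
Normalised RNA-seq counts (CPM) per library of the 5 members called after WAPL degradation on days 4 to 7, in both treatment windows, with lines joining the dTAG-13 and DMSO library of a pair. In the early window all 3 pairs of each gene slope the same way, upward to DMSO in 4 genes and downward in Rpl10l.

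The size of the shift differed between the pairs. The members' median log2 difference was 0.18 in H7 replicate 1, -0.37 in H7 replicate 2 and -0.41 in H2, so the replicate 1 pair went the other way. Accordingly the members' share of all counts was 1.51, 0.985 and 1.17% with dTAG-13, against 1.23, 1.22 and 1.47% with DMSO (exact two-sided permutation p = 0.6, where 0.1 is the smallest that 3 against 3 allow). Without the dTAG-13 library of H7 replicate 1 the number of members called was 44, of which 43 were lower. Without each other library it was 3 (DMSO, H7 replicate 1), 3 (dTAG-13, H7 replicate 2), 2 (DMSO, H7 replicate 2) or 1 (either library of H2). The share of all tested genes called in these fits is not given here, so the counts cannot be read as particular to the members.

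Same-numbered libraries deviated together, and a blocked fit on these numbers called 14 members, 13 lower and 1 higher. In that fit 27.5% of all tested genes were called and 12.8% were called lower. The blocked fit kept all 5 calls above, with Rpl36a at -1.47 (adjusted p = 0.000966) and Rpl5 at -0.51 (adjusted p = 0.00687). Among the members it added were Rpl3, a core protein near the peptidyl transferase centre, at -0.56 (adjusted p = 0.00238), and Rpl24, Rpl31, Rpl36, Rpl37, Rpl37a, Rps21 and Rps25, all lower.

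Cell type markers moved in the same libraries. The summed level of 5 neural progenitor markers was 152 to 193 CPM with dTAG-13 and 261 to 309 CPM with DMSO, that of 6 cardiac muscle markers 70.8 to 127 and 23.9 to 61.8 CPM, and that of the 9 fibroblast markers 100.04 to 126 and 74.2 to 81.9 CPM. The 7 visceral endoderm markers summed to 17.5 to 18.9 CPM with dTAG-13 and 10.0 to 15.1 CPM with DMSO. Of the 8 pluripotent cell markers the sum was 1952 to 2769 CPM with dTAG-13 and 2505 to 2774 CPM with DMSO. The part of these markers in the members' shift was not tested.

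After WAPL degradation on days 7 to 10, in clone H7, the members leaned the same way but 0 of 84 passed, and 0 of all 14110 tested genes did (0%) in edgeR's quasi-likelihood test. At an unadjusted p under 0.05 there were 893 genes over the whole table and 1 member, and limma-voom and DESeq2 called 0 and 0 members. The fits named here had no replicate block. With such a block 37.8% of all tested genes passed, and the members' count in that fit is given in the last section. The fitted change was below 0 for 69 of 84 members, against 52.0% of all tested genes, with a median of -0.15 beside -0.01. Taking libraries of the same number as a pair, both pairs were lower for 44 members, where 41.0% of all tested genes were. The groups did not overlap for 7 members that were lower (16.8% of all tested genes) and 1 that was higher (17.3%), and 3 members were higher in both pairs (36.4%). The medians of the pairs were -0.07 in replicate 1 and -0.25 in replicate 2, and with each library left out in turn the members' median ran from -0.55 to 0.20, so that a single library decided its sign.

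The member with the smallest unadjusted p was Rpl3l, with 0.247 and 0.147 CPM with dTAG-13 and 0.850 and 0.809 CPM with DMSO in replicates 1 and 2. It is the least counted member, and its log2 fold change was -2.15 ± 0.50 (SE, adjusted p = 0.700). Rpl36a had 1.56 and 0.920 CPM with dTAG-13 and 4.62 and 1.37 CPM with DMSO. Both pairs were lower, as on days 4 to 7, but the change of -1.32 ± 0.69 (SE) did not pass (adjusted p = 0.854). Rpl5 had 52.4 and 39.4 CPM with dTAG-13, against 71.8 and 51.8 CPM with DMSO, and Rpl10a 26.4 and 20.5 CPM with dTAG-13, against 40.1 and 26.8 CPM with DMSO. Both pairs of each gene were lower, and neither passed (adjusted p = 0.881 and 0.857). Rps6, the S6 kinase substrate of the small subunit, had 8.31 and 8.31 CPM with dTAG-13 and 10.4 and 9.66 CPM with DMSO, which did not overlap (adjusted p = 0.921).

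Markers moved in these libraries too. The 4 of 5 neural progenitor markers in this table summed to 160.0 to 170.4 CPM with dTAG-13 and 226 to 230.4 CPM with DMSO, the 6 cardiac muscle markers to 56.5 to 58.9 CPM with dTAG-13 and 32.3 to 33.4 CPM with DMSO, and 4 of 7 visceral endoderm markers to 29.9 to 39.2 CPM with dTAG-13 and 39.9 to 59.0 CPM with DMSO. These groups did not overlap. The 7 visceral endoderm markers had summed higher with dTAG-13 than with DMSO on days 4 to 7. The pluripotent cell markers summed to 1228 to 1972 CPM with dTAG-13 and 1693 to 2401 CPM with DMSO, which overlapped. The part of the markers in the members' values was not tested.

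The 2 windows do not share libraries, and their values are set side by side. Both hold clone H7 with the same replicate numbers, however. Whether a number marks a shared culture is not stated, so the windows may not be independent. The change was below 0 in both windows for 62 of 84 members, where 42.3% of the 13976 genes tested in both were. Lower in all 5 pairs were 21 members, among them Rpl3, Rpl5, Rpl7l1, Rpl10, Rpl10a, Rpl22l1, Rpl36a, Rps6, Rps12 and Rps27a. That share is near the background, since 25.8% of all genes were lower in all 5 pairs. Within clone H7 the response on days 7 to 10 minus that on days 4 to 7 had a median of -0.10 over the members and passed for 0 of them (0% of all 14324 tested genes passed in edgeR, 205 genes and 0 members had an unadjusted p under 0.05, and DESeq2 and limma-voom called 0 and 0 members). With DMSO alone, day 10 over day 7 gave a median of 0.00 and 0 members called in edgeR, of 340 genes (2.37%). At an unadjusted p under 0.05 there was 1 member, Rpl23a, with 2.00 ± 0.21 CPM at day 10 and 3.90 ± 0.31 CPM at day 7 (SD, n = 2 each, adjusted p = 0.191), and DESeq2 and limma-voom called 0 and 0 members. The day and the table in which the libraries stand cannot be told apart in that contrast.

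The rest of the growth machinery gives the setting of the members' shift. For the lists on days 4 to 7, the shares over all tested genes were 6.07% passing lower, 9.15% passing higher and 51.7% below 0. Of 55 tested ribosome biogenesis factors, 55 had a value below 0 on days 4 to 7 and 13 fell, with a median of -0.31. They were led by Rrs1, which helps to load the 5S particle (-0.61, adjusted p = 0.00678), Rrp1b (-0.47, adjusted p = 0.0148), Heatr1 (-0.46, adjusted p = 0.0186) and Noc4l (-0.48, adjusted p = 0.0202). Of 34 genes of the RNA polymerase I and III machinery 6 fell and 0 rose (median -0.18), among them Polr1b, the second largest subunit of RNA polymerase I (-0.53, adjusted p = 0.0129). Of 38 cytosolic translation factors 0 passed, with 36 values below 0 and a median of -0.18, close to the members' own. Among 21 other TOP genes 3 fell, namely Gas5 (-0.52), Nap1l1 (-0.38) and Npm1 (-0.43), and 1 rose, Vim (0.77).

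Among 24 growth regulators 4 fell and 2 rose, with 18 values below 0 and a median of -0.11. Myc fell by 1.29 on the log2 scale (adjusted p = 0.00144), Mycl by 0.96 (adjusted p = 0.00189) and Mycn by 0.74 (adjusted p = 0.00346), while Mxd4, which opposes MYC, rose by 1.36 (adjusted p = 0.00545). Mtor (-0.10, adjusted p = 0.530), Larp1 (-0.23, adjusted p = 0.138) and Eif4ebp1 (-0.27, adjusted p = 0.289) did not pass. In the list for the 5S particle and nucleolar stress 2 of 13 genes rose, Mdm2 (0.65) and Cdkn1a (0.73), and 2 fell, Rrs1 and Rpf2. On days 7 to 10 none of these genes passed, with values of -0.62 for Myc, -0.62 for Mycn and -0.32 for Rrs1, and with 55 of 55 biogenesis factors again below 0 (median -0.24).

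In the replicate 1 pair of days 4 to 7, in which the members' median was 0.18, the ribosome biogenesis factors had a median of -0.18 and the polymerase I and III genes one of -0.18. The translation factors stood at 0.01 and the other TOP genes at 0.07 in that pair. In replicate 2 and in H2 the biogenesis factors had medians of -0.32 and -0.43, and the TOP genes of -0.27 and -0.33. The median of the biogenesis factors was thus below 0 in all 3 pairs, and those of the members and of the other TOP genes in 2 of 3.

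**Figure D3:**
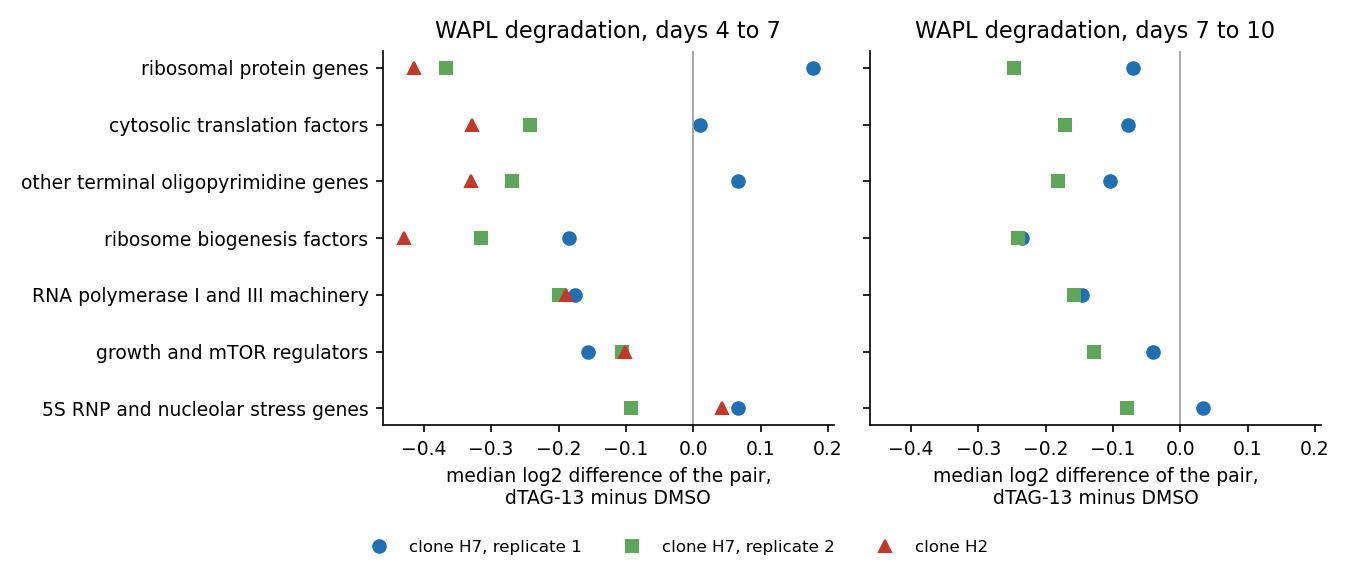
Median log2 difference, dTAG-13 minus DMSO, within each pair of WAPL libraries for the ribosomal protein genes and 6 lists of related genes. On days 4 to 7 the H7 replicate 1 pair sits above 0 for the ribosomal protein genes (0.18) and below 0 for the biogenesis factors (-0.18).

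After 8 h of RAD21 degradation at day 7, nascent transcription of the members was slightly lower, with 1 clear exception. Of 60 members 48 had a value below 0, against 50.6% of all tested genes, with a median of -0.10 beside 0.00. Both clones were lower for 43 members (34.2% of all tested genes), and in 28 the 2 dTAG-13 libraries lay below both DMSO libraries (15.9%). The 4 members that passed edgeR's test were 1 higher and 3 lower, which does not exceed the background of 10.3% of all 16496 tested genes (5.80% higher and 4.48% lower). The medians of the pairs were -0.07 in clone C4 and -0.15 in clone G9, and the members' share of counts was 0.731 and 0.641% with dTAG-13, against 0.749 and 0.702% with DMSO (exact two-sided permutation p = 0.667, with 0.333 the smallest possible). The pluripotent cell markers were lower in the same libraries, at 372 to 524 CPM with dTAG-13 and 553 to 668 CPM with DMSO, and their part in the members' values was not tested.

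The exception was Rpl7a, a large subunit gene with snoRNA genes inside it. It had 194 CPM (C4) and 213 CPM (G9) with dTAG-13, against 122 and 127 CPM with DMSO. The groups lay far apart in both clones, and the log2 fold change was 0.71 ± 0.07 (SE, adjusted p = 3.60e-09). Among the genes next to it, which were chosen after its value was seen, Surf6 fell by 0.26 (adjusted p = 0.0487), and Med22 (-0.15), Surf1 (-0.33), Surf2 (-0.34) and Surf4 (0.03) did not pass. In RNA at day 10 Rpl7a had 42.1 and 53.7 CPM with dTAG-13, against 44.6 and 43.7 CPM with DMSO, a change of 0.10 that did not pass (adjusted p = 0.292).

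Rpl8, Rpl28 and Rps18 fell. Rpl8, a core protein of the large subunit, had 115 and 110.0 CPM with dTAG-13 and 132 and 135 CPM with DMSO (log2 fold change -0.24 ± 0.07, SE, adjusted p = 0.0256). Rpl28 had 68.4 and 72.8 CPM with dTAG-13, against 87.3 and 82.9 CPM with DMSO (-0.27 ± 0.09, SE, adjusted p = 0.0360). In both genes the 2 groups did not overlap. Rps18, at the head of the small subunit, had 197 and 167 CPM with dTAG-13 and 223 and 196 CPM with DMSO (-0.20 ± 0.06, SE, adjusted p = 0.0380). It was lower in each clone, while the groups overlapped.

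The 7 snoRNA hosts in this table had a median of 0.01, with 3 below 0 and a range of -0.07 to 0.71. The 53 members without a snoRNA gene had a median of -0.14, with 45 below 0. Apart from Rpl7a, the hosts Rpl21 (0.08) and Rpl5 (0.07) stood highest among the hosts, and neither passed (adjusted p = 0.497 and 0.537). The difference between hosts and others was noticed in these data and has no test.

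**Figure D4:**
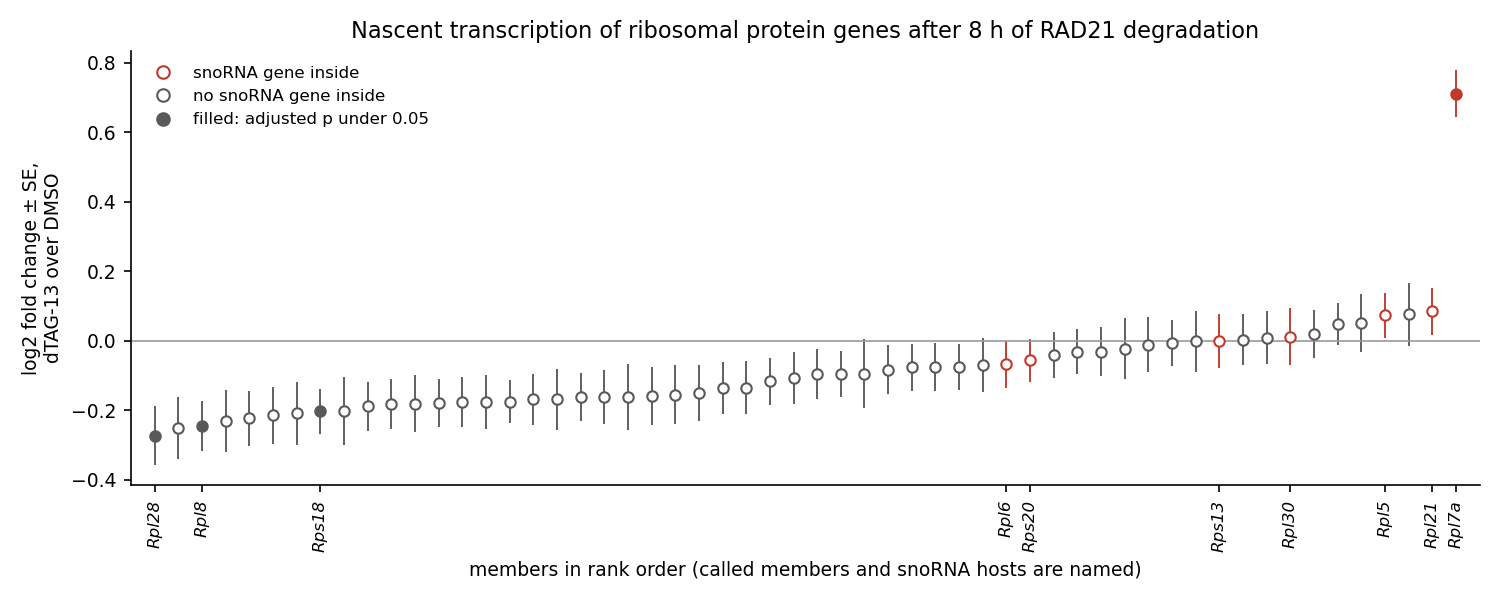
Fitted log2 fold change (± SE) in PRO-seq, dTAG-13 over DMSO, of the 56 members with at least 10 CPM in DMSO, in rank order, with the snoRNA hosts in red and names under the hosts and the 4 members that passed. Rpl7a stands alone at 0.71, and the other members lie between -0.27 and 0.08.

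Some related genes passed in nascent RNA, where 5.80% of all tested genes passed higher, 4.48% passed lower and 50.6% were below 0. Larp1, which binds the TOP tract, fell by 0.44 (adjusted p = 9.45e-06), Myc by 0.40 (adjusted p = 0.0122) and Mycn by 0.39 (adjusted p = 0.0119). Among 23 growth regulators 21 were below 0 (median -0.11), 4 fell and 0 rose. Of 49 biogenesis factors 43 were below 0, and 3 fell, Nop2, Nle1 and Ebna1bp2, while 1 rose, Utp20. Of 33 polymerase I and III genes 4 fell, led by Polr1b (-0.30) and Ubtf (-0.25), and of 31 translation factors 2 fell, Eif1 (-0.22) and Eif5a (-0.25). Among the other 16 TOP genes 0 passed. Of 12 genes for nucleolar stress 5 rose, among them Ccng1 (0.38) and Cdkn1a (0.21). Without any 1 library the fit had no clone term, and it then called 0 members, Rpl7a included, whose log2 fold change stayed between 0.64 and 0.78 over all 12 alternatives. DESeq2 called 1 member.

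At day 10, 8 h of RAD21 degradation gave changes in both directions in RNA. Of 84 members 6 rose and 5 fell in edgeR, which does not exceed the background of 18.8% of all 14470 tested genes (9.85% higher and 8.92% lower), and the median was 0.06. In both clones 14 members were higher (34.9% of all tested genes) and 20 were lower (33.5%). The pairs disagreed, with medians of -0.11 in clone C4 and 0.18 in clone G9. The members' share of counts was 1.11 and 1.49% with dTAG-13, against 1.19 and 1.26% with DMSO (exact two-sided permutation p = 1, with 0.333 the smallest possible). The cardiac muscle markers summed to 67.7 to 71.2 CPM with dTAG-13 and 48.7 to 58.0 CPM with DMSO, and the pluripotent cell markers to 966 to 1273 CPM and 1163 to 1593 CPM. The neural progenitor markers summed to 170.3 to 181.3 CPM with dTAG-13 and 186.4 to 188.1 CPM with DMSO. The fibroblast markers summed to 287.4 to 294.6 CPM with dTAG-13 and 280.66 to 280.71 CPM with DMSO. Singly they went both ways: of 8 tested, 1 passed higher and 3 lower, 4 were below 0, and the median was -0.07. The part of these markers in the members' values was not tested.

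All 3 stalk genes rose. Their products form the flexible stalk of the large subunit that recruits the translation GTPases. Rplp0 had 435 and 639.6 CPM (C4 and G9) with dTAG-13 and 405 and 422 CPM with DMSO (log2 fold change 0.35 ± 0.08, SE, adjusted p = 0.000143). Rplp2 had 45.9 and 46.6 CPM with dTAG-13 and 38.3 and 39.6 CPM with DMSO (0.25 ± 0.07, SE, adjusted p = 0.00213). Rplp1 had 249 and 336 CPM with dTAG-13 and 241 and 268 CPM with DMSO (0.19 ± 0.07, SE, adjusted p = 0.0287). The rise of Rplp0 lay mostly in clone G9. In a fit without the dTAG-13 library of G9 and without a clone term, Rplp0 had a value of 0.074, Rplp1 one of -0.030 and Rplp2 one of 0.24. Of 12 alternative settings, 4 kept the call of Rplp0, 4 that of Rplp1 and 5 that of Rplp2. All were higher in both clones, and Rplp0 and Rplp2 did not overlap between groups. In nascent RNA at day 7 Rplp0 had a change of -0.19 (adjusted p = 0.0844) and Rplp1 one of -0.16 (adjusted p = 0.314), which lie on the other side of 0 and did not pass.

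The other genes that rose were of the large subunit. Rpl37 had 129 and 169 CPM with dTAG-13 and 114 and 138 CPM with DMSO (0.23, adjusted p = 0.000466). Rpl14 had 202 and 278 CPM with dTAG-13 and 201 and 214 CPM with DMSO (0.19, adjusted p = 0.0161). In Rpl14 the rise lay almost wholly in clone G9, and without the dTAG-13 library of G9 its value was -0.042. Rpl21 had 38.8 and 49.2 CPM with dTAG-13 and 37.1 and 40.1 CPM with DMSO (0.18, adjusted p = 0.0452). Without the dTAG-13 library of G9 the value of Rpl37 was 0.035 and that of Rpl21 0.0081, and of 12 alternative settings 6 kept the call of Rpl37, 4 that of Rpl14 and 2 that of Rpl21.

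The 5 that fell were lower in both clones. Rps25, a small subunit protein needed for some internal ribosome entry sites, had 31.2 and 45.4 CPM with dTAG-13 and 56.1 and 63.5 CPM with DMSO (-0.67 ± 0.06, SE, adjusted p = 7.47e-23). Rpl37a had 10.2 and 14.3 CPM with dTAG-13 and 18.2 and 19.5 CPM with DMSO (-0.65, adjusted p = 2.46e-08), and Rps10 had 7.38 and 10.4 CPM with dTAG-13 and 12.3 and 14.8 CPM with DMSO (-0.62, adjusted p = 8.41e-06). In these 3 genes the groups did not overlap. With any 1 library left out they stayed below 0, from -0.94 to -0.41 for Rps25, -0.89 to -0.41 for Rpl37a and -0.87 to -0.39 for Rps10, and passed in none of these 4 fits, which had no clone term. Rpl27 had 13.4 and 3.51 CPM with dTAG-13, against 22.6 and 4.25 CPM with DMSO (-0.64, adjusted p = 1.82e-05). Rpl11 had 18.9 and 56.6 CPM with dTAG-13, against 19.9 and 71.4 CPM with DMSO (-0.23, adjusted p = 0.00882). In Rpl27 and Rpl11 the clones lay several-fold apart within each treatment, C4 above G9 for Rpl27 and G9 above C4 for Rpl11. In fits with no clone term their direction turned with single libraries left out, Rpl27 to 1.03 (without DMSO, C4) and 0.02 (without dTAG-13, G9), and Rpl11 to 0.29 (without dTAG-13, C4) and 0.91 (without DMSO, G9).

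Nascent and mature RNA were compared for the 60 members present in both RAD21 tables. Of these 9 passed in RNA and 4 in nascent RNA, and 0 in both. The share of all genes that passed in both is not given here, and with so few calls the 0 is a description only. Rps25, the largest fall in RNA with a nascent value, had 79.6 and 75.3 CPM in nascent RNA with dTAG-13, against 90.4 and 89.5 CPM with DMSO, which was lower without passing (-0.21, adjusted p = 0.0948). Rpl37a and Rpl27 had nascent changes of 0.00 (adjusted p = 0.995) and 0.01 (adjusted p = 0.966). The 2 assays differ in day as well as in what they read, so day and assay cannot be told apart here. With 1 residual degree of freedom and few libraries the RNA calls hung on the fit: without a clone term 0 members passed, and without each library 0 did, or 1 without the DMSO library of G9, while DESeq2 called 2.

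Some related genes passed in the same RNA libraries, where 9.85% of all tested genes passed higher and 8.92% lower. Mycn fell by 0.48 (adjusted p = 4.44e-15), while Myc rose by 0.18 (adjusted p = 0.0138) and Mycl by 0.27 (adjusted p = 2.84e-05). Of 38 translation factors 3 rose and 1, Eif4a2, fell by 0.26 (adjusted p = 5.68e-05). Of 55 biogenesis factors 0 passed in edgeR (the smallest unadjusted p, that of Gnl3l, was 0.0303). Mdm2 (0.31) and Cdkn1a (0.25) were among 5 of 13 nucleolar stress genes that rose. Among 21 other TOP genes Naca (0.19) and Vim (0.29) rose, and Gas5, a snoRNA host, fell by 0.28.

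None of the other X-linked and diverged members passed the test on days 4 to 7, nor did Rps27a and Rpsa. The small subunit gene Rps4x had 324, 98.6 and 206 CPM in dTAG-13 libraries, against 215, 169 and 241 CPM in DMSO libraries, so its pairs went in different directions (adjusted p = 0.985). Rpl39 differed by -0.03 on the log2 scale (adjusted p = 0.918). The muscle copy Rpl3l and the germ cell copy Rpl39l were scarcely counted, with log2 fold changes of -0.95 and 0.22 that did not pass (adjusted p = 0.166 and 0.723). Rps27l, a relative of Rps27 known as a p53 target, differed by -0.05 (adjusted p = 0.777) and Rps27 by -0.18 (adjusted p = 0.691). Rps27a, made as a fusion with ubiquitin, had 10.2 ± 2.9 CPM with dTAG-13 and 13.3 ± 3.3 CPM with DMSO (SD, n = 3 each, adjusted p = 0.215 in edgeR). Rpsa, also known as the laminin receptor precursor, had 247, 112 and 401 CPM with dTAG-13 and 179.5, 153 and 522 CPM with DMSO, where clone H2 stood above both H7 replicates (adjusted p = 0.908).

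Over all 14 RNA libraries on a common scale the members' spread was set beside that of the other genes whose mean CPM lay between those of the lowest and the highest member, a set that is not matched in level. The median ratio of highest to lowest CPM was 2.42 for the 84 members and 2.05 for 14027 such genes, a description without a test. The ratio was under 2 for 23 members (27.4%), against 47.8% of the others, and over 4 for 19 members (22.6%), against 19.1% of the others. The widest was Rpl35, with 4.49 to 69.4 CPM, followed by the scarcely counted Rpl39l and Rpl3l and by Rpl27 with 2.09 to 22.3 CPM. The steadiest were Rps3 with 755 to 1129 CPM and Rpl4 with 1209 to 1806 CPM, which are also among the most counted.

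Replicate 1 of clone H7 carried more member RNA than replicate 2, but hardly so in the DMSO libraries of days 4 to 7. The members' share of counts was 1.23 against 1.22% there, and 1.51 against 0.985% with dTAG-13 in that window. On days 7 to 10 it was 1.49 against 0.903% with dTAG-13 and 1.54 against 1.01% with DMSO. In all 4 matched pairs of numbers (both windows and both treatments) replicate 1 was higher for 44 of 84 members (52.4%), against 24.8% of the other genes, and the median difference was 0.48 on the log2 scale for the members and 0.00 for the others. Rpl35 differed by 2.33 and Rpl11 by 1.68 in this way. Whether a number marks a shared culture or preparation is not stated in the labels, and the part of this spread in the WAPL results was not tested.

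Clones also differed, which is given as a description without a test. In clone H2 Rpl41, Rps28, Rpsa, Rps23 and Rps25 lay 1.42 to 1.61 higher on the log2 scale than in H7, while Rpl3l, Rpl35, Rpl9 and Rpl37 lay 1.26 to 1.37 lower. Clone H2 had 1 library per treatment. The H7 libraries of days 4 to 7 spanned 4.39 to 49.3 CPM for Rpl35, a range that holds both H2 values (7.85 and 11.0 CPM). Rpl3l in H2 rests on counts of 1 and 3. Between the RAD21 clones, Rpl11 was higher by 1.71 in G9 than in C4, and Rpl27 lower by 2.17.

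**Figure D5:**
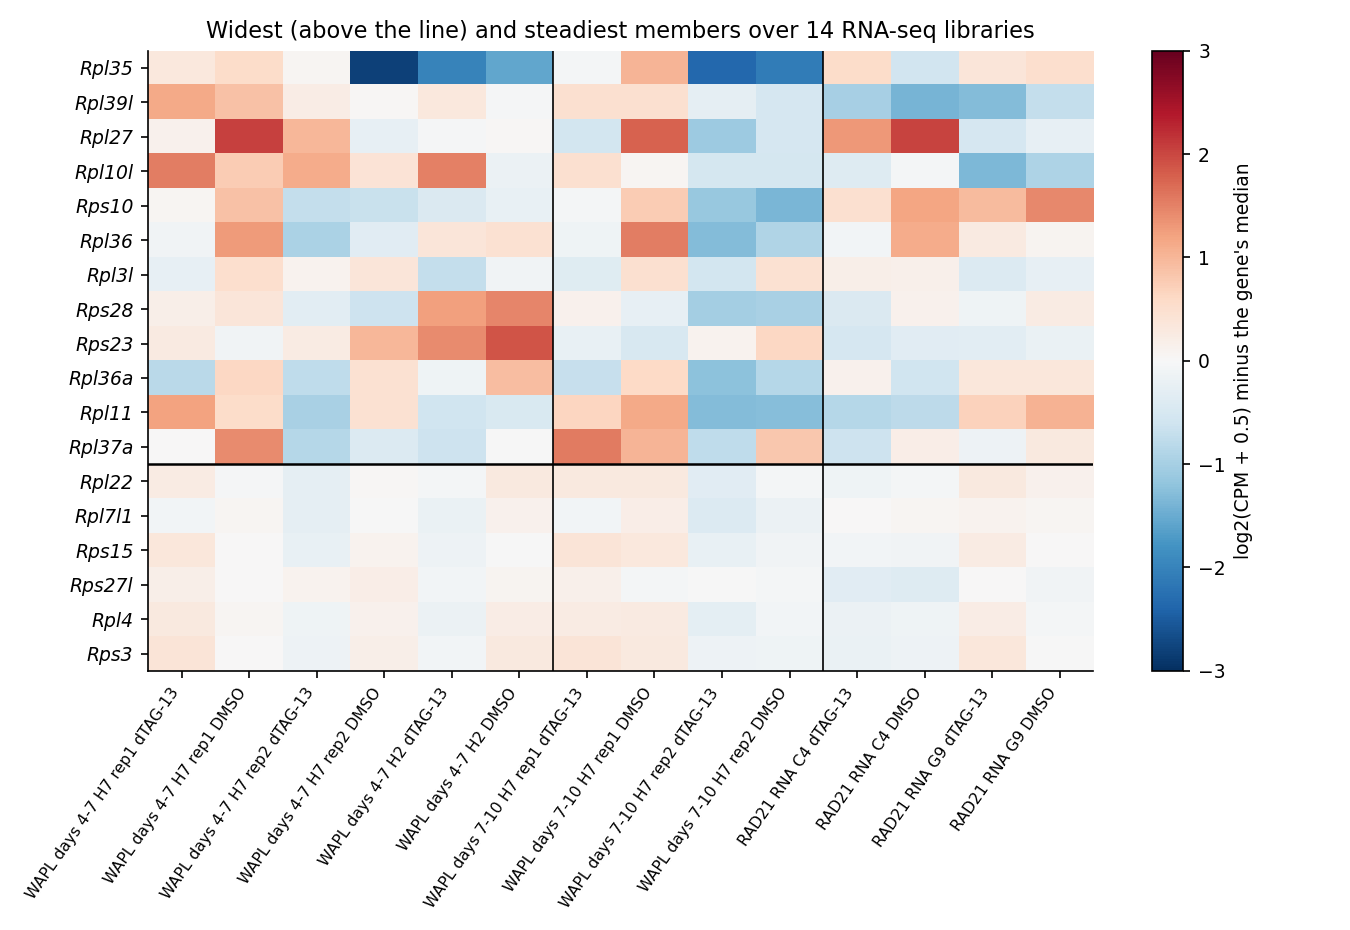
The 12 members with the widest and the 6 with the narrowest range over the 14 RNA-seq libraries, as log2(CPM + 0.5) minus the gene's median, with vertical lines between the tables. Rpl35 is low in both H2 libraries and in those of H7 replicate 2, apart from the dTAG-13 library of days 4 to 7, while the 6 steadiest members hardly change colour.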

How the data were processed

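RNA-seq was measured in 14 libraries and PRO-seq in 4. The authors deposited unnormalised read counts of each gene for RNA-seq, in 3 tables. For PRO-seq the authors deposited estimated counts, in steps of 0.5, which were rounded to whole numbers. The submitters' processing notes name, without roles, HOMER, Bowtie2, Novoalign, TopHat2, DESeq2 and DESeq, and the builds mm9, dm6 and hg19. How genes were counted, whether strand was used and where reads shared by copies went is not given in the sources used here.

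Libraries held 8413212 to 35388461 counts. Each table was fitted whole with edgeR 4.0.16 (R 4.3.3): scaling by TMM, a filter by filterByExpr (minimum count 10), robust quasi-likelihood tests and Benjamini-Hochberg adjustment at 0.05 over all tested genes. The clone was a term on days 4 to 7 and in both RAD21 sets. Alternatives were RLE scaling, library totals, scaling without the members, no filter, limma-voom (limma 3.58.1), DESeq2 1.42.0, a filter at a mean count of 50, no clone term, H7 alone, a replicate block and each library left out. Simulated data with 200 planted changes were used to check the fits.

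On days 4 to 7 the replicate numbers, from the labels, were used to pair the libraries. The deviations of same-numbered dTAG-13 and DMSO libraries correlated at 0.49, 0.49 and 0.62 across genes. Number 3 is clone H2 alone, so the 0.62 cannot be told apart from the difference between clones. Within clone H7 libraries of unlike number correlated at 0.12 and 0.033. Nothing in the labels says that replicates came from separate cultures, so p-values measure the spread between these samples, which may be technical. Members and lists were chosen with earlier results of these data known. Genes named are members past the threshold in any comparison, the 3 smallest p in each direction, diverged copies with their parents, X-linked, stalk and 5S particle members, Rpsa, Rps27a and Rps6, members with wide spread, up to 4 genes of each list by smallest p, and Myc, Mycn, Mtor, Larp1, Eif4ebp1, Rad21 and Wapl. Other members named for their level, nascent signal or snoRNA genes, and the neighbours of Rpl7a, were chosen after their values were seen. Start sites, pseudogene names and snoRNA genes are from RefSeq (GRCm38.p6), another build than the tables'. ChIP-seq, Hi-C and CHART samples were not analysed here.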

Additional observations from a re-analysis of the deposited data

How the results depend on the processing

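The number of members called on days 4 to 7 of WAPL degradation was 3 with library totals, 3 with a mean count of at least 50, 1 without the clone term, 1 in clone H7 alone and 14 with the replicate block, and 1 to 44 with each library left out. For the fits with a library left out the share of all tested genes called is not given here. On days 7 to 10 it was 24 with the replicate block, where 37.8% of all genes were called, and 0 to 3 with a library left out. The 2 pairs of that window share only a number (r = 0.77 for the same number). The difference between windows had 0 members called with the block. For RAD21 RNA the count was 7 with library totals, 7 with a mean count of at least 50, 2 in DESeq2, 0 without the clone term and 0 to 1 with a library left out. For PRO-seq it was 1 in DESeq2, 0 without the clone term and 0 to 0 with a library left out.

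With each library left out the members' median ran from -0.40 to -0.04 on days 4 to 7, -0.55 to 0.20 on days 7 to 10, -0.51 to 0.26 for the difference between windows, -0.38 to 0.27 for day 10 over day 7, -0.13 to 0.26 in RAD21 RNA and -0.20 to -0.038 in PRO-seq. The difference in the members' share of counts, dTAG-13 minus DMSO in percentage points, ran from -0.230 to 0.0305, -0.369 to 0.222, -0.119 to 0.265 and -0.0845 to 0.00489 for the 4 comparisons in the same order. In RAD21 RNA, Rpl11 turned to 0.29 and 0.91, Rpl27 to 1.03 and 0.017, Rpl14 to -0.042 and Rplp1 to -0.030 when a library was left out. The causes were not tested. Over all results and settings, 148 counts, medians and shares stayed close to the reported value and 42 did not, and for single called members 131 values kept their call and 123 lost it. With 2 libraries a group in 3 of the 4 comparisons and 3 in the other, the number of libraries limits the precision.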
